A study of Mus musculus with 31 samples.

Results

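The response of parental mouse melanoma to a glucocorticoid (GC) was compared between tumors grown in mice and cells kept in culture, gene by gene. For each gene the log2 fold change of GC-treated over DMSO-treated cultures was subtracted from that of GC-treated over control tumors, so that a positive difference is a response that is more upward, or less downward, *in vivo*. All libraries of parental tumors and parental cultures were used, 15 of the 31 in the series: 5 control tumors, 5 GC tumors, 3 DMSO cultures and 2 GC cultures. Genes were compared if they reached a CPM (counts scaled to library size) of 1 in at least 3 of the 10 tumors and in at least 2 of the 5 cultures, which 11183 of the 39179 genes counted did. The line arose on a C57BL/6 background with an inducible *Nras* G12D allele and CreERT2 driven by the *Tyr* promoter. Its tumors were grown intradermally in wild-type C57BL/6 mice and collected whole. The mice kept their own GC receptor (GR) in all host cells. GC tumors were treated topically with clobetasol propionate 0.05% ointment 3 times weekly. Control tumors are labelled as control only, for which the methods of the study name topical cetraben cream. The cultures were kept for 48 hours with DMSO or clobetasol propionate. The treatment label gives a dose of 10 µM and the library names give 1 µM, so the dose is not settled. The methods of the study name the dose of the treatment label as the usual one, with exceptions allowed. The ages of the mice and the day of tumor collection are not in the labels, and the library names of the cultures all carry the same date. Ointment on a tumor and drug in medium differ in dose, route and time, and none of these can be told apart from the difference between tumor and culture.

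GCs enter the cell and bind GR, a nuclear receptor that is held by chaperones in the cytoplasm and moves to the nucleus on binding. There it attaches to short paired DNA elements and raises or lowers the transcription of nearby genes, among them regulators of inflammation, of the circadian clock and of metal handling. Many of these targets depend on the cell type, while a small group that includes *Tsc22d3*, *Per1* and *Fkbp5* responds in most tissues.

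Sequencing read the 3′ ends of messenger RNA. Totals ran from 15528066 to 26386770 counts per tumor and from 14441166 to 22463188 per culture, so that 3 counts corresponded to between 0.114 and 0.208 CPM. Intervals and limits drawn from counts cover counting error only. Replicates were further apart than sampling noise in all pairs, the chi-square per gene averaging 8.86 to 279, where draws from 1 library would give about 1. The labels do not say whether the cultures were grown and treated separately, and the p-values therefore measure the spread between these samples only. GC culture 3 is not among the libraries. Levels below are CPM scaled with TMM factors, unless counts are named, and are listed by replicate number. Summed levels of markers are the exception, as they are CPM on library totals without TMM factors.

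Of the libraries, 3 stood apart from their groups. GC tumors 2 and 4 had TMM factors of 0.899 and 0.920, against 0.983 to 1.09 in the other tumors, and mean correlations with their own group of 0.921 and 0.931, against at least 0.942 in the others. DMSO culture 2 had a TMM factor of 0.875 and a mean correlation of 0.954, against 0.971 and 0.969 in DMSO cultures 1 and 3. The main counts are given below with and without these libraries, a choice made after seeing the data.

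The melanoma label was checked against 10 pigment-cell markers. *Tyr*, *Dct*, *Sox10* and *Mlana* had 0 counts in all 5 cultures, and of the 10 markers only *Mitf*, with 134 to 254 counts per culture, was tested. The summed level of the 10 markers was 9.90 to 13.0 CPM in cultures and 62.6 to 122.2 CPM in tumors. Whole tumors also hold host cells. The summed level of 36 leukocyte markers was 7720 to 13800 CPM in tumors, with *C1qa* the most abundant, and 172 to 285 CPM in cultures, where *Fcer1g* made up most of it and *Ptprc* was at 0. For 18 keratinocyte markers the sums were 3776 to 6626 CPM in tumors and 18.1 to 26.9 CPM in cultures, where *Krt5* was at 0. In bulk RNA, fewer cells of a type and less RNA per cell cannot be told apart, and a tumor value sums melanoma and host cells.

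In total, 22 genes differed in their response between tumor and culture (0.197% of the genes tested), at an adjusted p under 0.05 from edgeR and a difference of at least 1.5-fold. When same-numbered samples were treated as blocks, 2 genes differed, and of the 22 only *Prkcb* kept its call. In that fit DMSO culture 3 has no GC partner, so the culture response rests on 2 pairs. The blocks also leave fewer samples free to measure the spread, so the lost calls do not tell whether samples pair. For the others the adjusted p from edgeR then ran from 0.0591 for *Mt2* to 0.142 for *Ccbe1*. These losses are not repeated for each gene below. In their labels, same-numbered tumors share only a number, which does not settle whether they pair. The pairs of cultures are too few to tell whether they belong together. In the fit without blocks, 7 of the 22 genes had a higher and 15 a lower response in tumors, and 1466 genes had an unadjusted p under 0.05. All 22 had the larger response, in absolute size, in culture. Of the 22, 12 had fitted responses of opposite sign and 10 of the same sign, and none was called in opposite directions in tumors and in cultures in this fit, although *Timp3* was with all 31 libraries. In the same fit, GC changed 108 genes in tumors (0.966%), 67 upward and 41 downward, and 83 genes in cultures (0.742%), 59 upward and 24 downward. There were 18 genes called in both, 16.7% of the tumor list and 21.7% of the culture list. They comprised 17 that rose and 1 that fell, *Lrrc32*. For each gene this fit shares 1 estimate of spread between tumors and cultures. With tumors fitted alone, GC changed 32 genes in tumors in place of 108. With DESeq2, which the study's methods name, 110 genes differed, and 89 of these had the larger response in culture. The balance of directions turned over, with 64 of the 110 (58.2%) higher in tumors, against 31.8% of the 22. The larger response was in culture for 33 of 40 genes with limma voom (37.5% higher in tumors) and for 30 of 34 in a fit of all 31 libraries (38.2% higher in tumors). With 1 library left out, the response was larger in culture for 21 of 25 without GC tumor 1, 20 of 22 without control tumor 2, 21 of 22 without control tumor 1, 19 of 20 without control tumor 4, 25 of 26 without GC tumor 3, 15 of 16 without DMSO culture 2, and all in the other 9 fits. Without GC tumors 2 and 4 together it was 24 of 25, and without these and DMSO culture 2 it was 23 of 24. The median standard error of a log2 fold change was 0.245 in tumors and 0.357 in cultures, and that of the difference was 0.434.

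The number of genes differing rested on the GC cultures more than on the tumors. Without GC culture 1 it was 12 and without GC culture 2 it was 13, where the remaining culture is assumed to vary like the other groups. The other 13 fits with 1 library left out gave 15 to 26. Without GC tumors 2 and 4 the count was 25, with 20 of the 22 genes among them, without DMSO culture 2 it was 16, with 15 of the 22, and without all 3 it was 24, with 19 of the 22. The number of genes changed in tumors moved further, from 108 to 583 without control tumor 2, 30 without control tumor 3, 49 without control tumor 4, 40 without control tumor 5, 164 without GC tumor 1, 69 without GC tumor 2 and 50 without GC tumor 4 or GC tumor 5. It was 70 without GC culture 1, 71 without GC culture 2, 50 without GC tumors 2 and 4 together and 69 without those and DMSO culture 2. The number changed in cultures went from 83 to 29 without GC culture 1, 33 without GC culture 2, 44 without DMSO culture 1 and 55 without DMSO culture 3. It was 140 without GC tumors 2 and 4.

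Of the 22 genes, 9 were called in all 15 fits that left out 1 library: *Prkcb*, *Sorbs2*, *Mt2*, *Aldh1a1*, *Lcn2*, *Dpep1*, *Adam12*, *M1ap* and *Rab3il1*. Of the 22, 7 (*Lcn2*, *Acp5*, *Fabp4*, *Dpep1*, *Aldh1a1*, *Ccbe1* and *Ehd3*) passed the filter in culture through the GC cultures alone. Such a gene had to differ between the cultures, and 46 of the 11183 genes tested and 16 of the 83 culture-called genes passed this way, so nothing is read from their number. GC and DMSO cultures were apart for all 22 genes (28.2% of all genes tested), and GC and control tumors for 7 (4.12% of all genes tested), shares that follow in part from how the 22 were chosen.

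**Figure D1:**
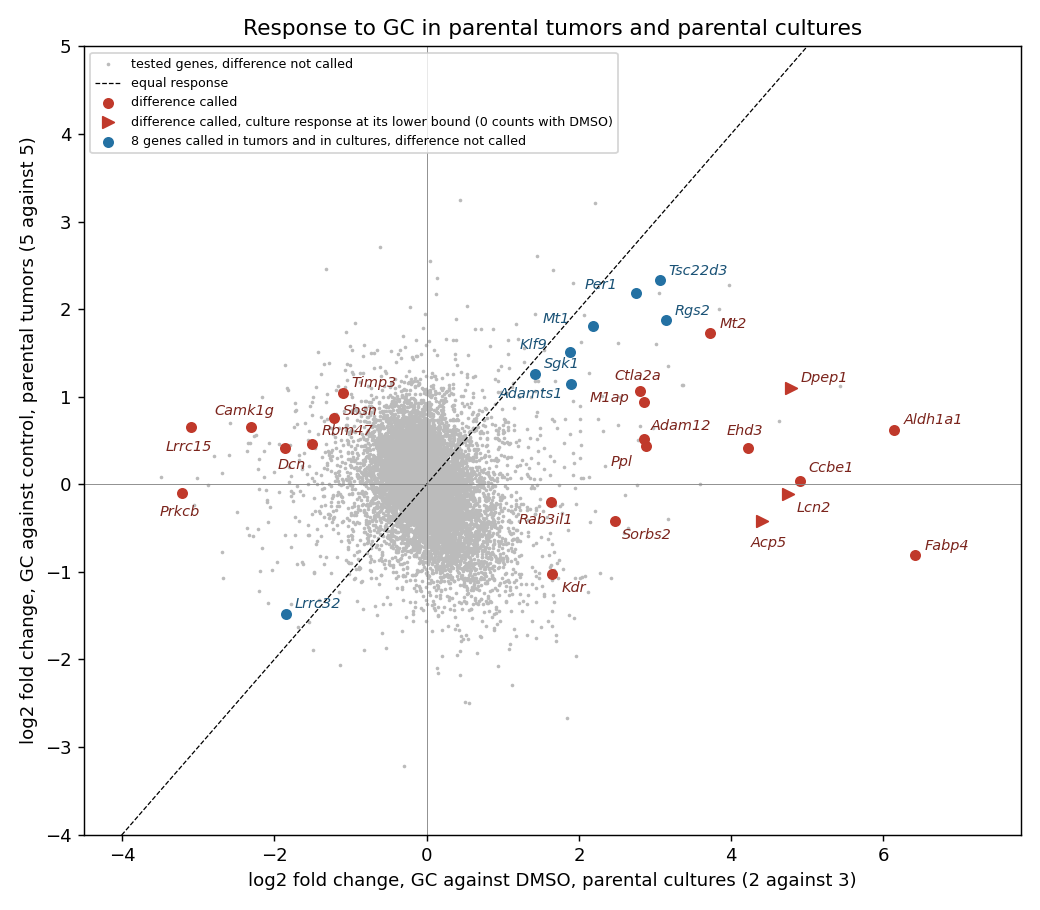
Log2 fold change with GC in parental cultures (x axis, 2 GC against 3 DMSO) and parental tumors (y axis, 5 GC against 5 control), 1 point per tested gene, with the dashed line at equal response. Red marks the 22 genes whose difference was called, with those at 0 counts in DMSO placed at their lower bound (triangles), blue marks 8 genes called in tumors and in cultures but not for the difference, and 6 genes not called that had 3 counts or fewer in a group are left out.

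A first group was at or near 0 counts in DMSO cultures, appeared with GC, and was already present in control tumors. *Lcn2*, which encodes the secreted siderophore-binding protein lipocalin, was at 0, 0 and 0 counts in DMSO cultures and at 31 and 31 counts in GC cultures. The controls among the tumors had 4.35, 7.08, 5.99, 5.29 and 7.26 CPM, and GC tumors 8.73, 3.25, 4.56, 8.31 and 2.99 CPM. Tumor groups overlapped, and the response was at least 26.8-fold in culture against a log2 fold change of -0.11 in tumors (adjusted p = 0.881 from edgeR). The log2 difference was thus -4.85 or further below 0, taking 3 counts over the DMSO group, with an adjusted p of 0.00416. *Dpep1* (chr8:123186242-123201812), a membrane dipeptidase, had 0, 0 and 0 counts with DMSO and 32 and 32 with GC. In control tumors it was at 13.5, 15.5, 13.1, 11.5 and 8.55 CPM, and in GC tumors at 23.5, 36.5, 19.0, 30.3 and 24.2 CPM. The GC tumors all lay above the highest control (p = 0.00794 by exact permutation, two-sided, which is the lowest value possible for groups of 5). *Dpep1* rose in both settings, by a log2 fold change of 1.10 in tumors (adjusted p = 0.0369) and at least 27.7-fold in culture, and differed by -3.69 or more (adjusted p = 0.00368). The bounds are set by depth, and a deeper library could show larger values.

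*Acp5*, the tartrate-resistant acid phosphatase known from osteoclasts and macrophages, had 0, 0 and 0 counts with DMSO and 17 and 32 with GC, at least 21.2-fold. It was far more abundant in tumors, at 58.4, 175, 141, 42.0 and 156 CPM in controls and 63.5, 101, 67.1, 105 and 90.7 CPM with GC. Tumor groups overlapped, and the tumor log2 fold change was -0.42 (adjusted p = 0.450). The log2 difference was at most -4.82 (adjusted p = 0.0293), and its call was lost without DMSO culture 1 (adjusted p = 0.103), DMSO culture 2 (0.0946), DMSO culture 3 (0.0941), GC culture 1 (0.0947), GC culture 2 (0.156) or control tumor 3 (0.0565). It was also lost for *Acp5* with limma voom (adjusted p = 0.102), without GC tumors 2 and 4 together (0.0672) and without these and DMSO culture 2 (0.175). *Fabp4*, a fatty acid carrier of fat cells and macrophages, had 0, 0 and 2 counts with DMSO and 80 and 52 with GC, a ratio of 85.6 with a 95% counting interval of 23.2 to 714. In tumors it was at 7.46, 7.18, 15.6, 20.3 and 16.8 CPM in controls and 12.4, 2.02, 12.3, 1.80 and 9.93 CPM with GC, where the low values are GC tumors 2 and 4. Its call (adjusted p = 0.0226) was lost without DMSO culture 1 (adjusted p = 0.108), DMSO culture 2 (0.1), DMSO culture 3 (0.0584) or GC culture 1 (0.140). *Fabp4* is also a marker of fat, and the summed level of 16 muscle and fat markers was 2.91 to 9.56 CPM in cultures, with 11 to 13 of them at 0, and 446 to 919.5 CPM in tumors, where *Acta1* was the most abundant. The part of these markers in the result was not tested.

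*Aldh1a1*, which makes retinoic acid from retinaldehyde, had 12, 0 and 8 counts with DMSO and 456 and 642 with GC, or 0.816, 0 and 0.488 CPM against 32.4 and 30.3 CPM. Tumor values were 4.63, 4.31, 2.47, 6.05 and 3.69 CPM in controls and 7.35, 3.70, 7.63, 6.35 and 7.50 CPM with GC. Only GC tumor 2 fell within the range of the controls (exact permutation test, p = 0.0556). The log2 fold change was 6.14 in culture (adjusted p = 7.35e-05) and 0.62 in tumors (adjusted p = 0.341), and the difference was -5.52 (95% interval -7.09 to -3.96, adjusted p = 0.00257). The GC cultures exceeded all 10 tumors. *Ehd3*, which acts in the recycling of endosomes, went from 10, 0 and 9 counts to 108 and 170 in culture, with a log2 difference of -3.81 (95% interval -5.23 to -2.38, adjusted p = 0.0199). Its tumor values ran from 12.1 to 18.9 CPM in controls and from 14.8 to 33.9 CPM with GC, and overlapped. *Ccbe1*, an extracellular matrix protein needed for lymphatic growth, had 2, 0 and 1 counts with DMSO and 24 and 45 with GC, a ratio of 29.8 (95% counting interval 9.79 to 148). Its tumor groups overlapped, at 2.00 to 7.13 CPM in controls and 3.42 to 7.21 CPM with GC (log2 fold change 0.04, adjusted p = 0.961). The call of *Ehd3* was lost without DMSO culture 3 (adjusted p = 0.0521), GC culture 1 (0.0947) or GC culture 2 (0.106). That of *Ccbe1* (adjusted p = 0.0293) was lost without DMSO culture 1 (0.0539), DMSO culture 2 (0.1), DMSO culture 3 (0.110), GC culture 1 (0.0974), GC culture 2 (0.156), control tumor 2 (0.0543), control tumor 3 (0.0583) or control tumor 5 (0.0514), with library totals in place of TMM factors (0.05), without GC tumors 2 and 4 together (0.0601) and without these and DMSO culture 2 (0.161).

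*Mt2*, *Ctla2a* and *M1ap* rose in both settings and more in culture. *Mt2* (chr8:94172664-94173568), a metallothionein that binds zinc and copper, was at 215, 194 and 249.8 CPM with DMSO and 3055 and 2749 CPM with GC. Control tumors were at 337, 301, 315, 339.7 and 395 CPM and GC tumors at 1087, 895, 1264, 1195 and 1132 CPM. The groups were apart in both settings, and both GC cultures lay above every GC tumor although the DMSO cultures lay below every control tumor. *Mt2* rose by a log2 fold change of 3.72 in culture (standard error 0.22, adjusted p = 4.83e-08) and 1.72 in tumors (standard error 0.15, adjusted p = 2.35e-05), a difference of -2.0 (95% interval -2.54 to -1.46, adjusted p = 0.00186). Its neighbor and paralog *Mt1* (chr8:94179082-94180327) rose by 2.19 in culture and 1.80 in tumors, and its difference of -0.39 (95% interval -1.03 to 0.26) was not called. How the counting treated reads shared by the paralogs was not tested. Of 8 genes tested in the list of metallothioneins and zinc transporters, *Mt2* alone was called for the difference, and the median difference was -0.54, against 0.06 over all genes tested.

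*Ctla2a* encodes an inhibitor of cysteine proteases. It was at 17.7, 23.9 and 19.0 CPM with DMSO and 135 and 146 CPM with GC, and at 63.4, 49.0, 66.3, 61.7 and 65.2 CPM in control tumors and 104, 136, 109.7, 169.8 and 119 CPM in GC tumors. GC brought the cultures from below every control tumor to within the range of the GC tumors. The difference was -1.74 (95% interval -2.33 to -1.14, adjusted p = 0.00985), and its call was lost without DMSO culture 1 (adjusted p = 0.0539), GC culture 1 (0.0589) or GC culture 2 (0.0942). *M1ap*, a gene known for its part in male meiosis, and *Rab3il1*, an exchange factor for Rab GTPases, fell outside the rule for named genes and were named after their values were seen. *M1ap* was at 29.8, 25.5 and 25.7 CPM with DMSO and 187 and 202 CPM with GC, and at 21.1 to 24.3 CPM in control tumors and 33.9 to 57.4 CPM in GC tumors, with the groups apart in both settings. It was the 1 gene of the 22 that was lower in control tumors than in DMSO cultures, and it differed by -1.91 (95% interval -2.47 to -1.34, adjusted p = 0.00363). *Rab3il1* was at 1.63, 1.50 and 1.65 CPM with DMSO and 4.76 and 5.19 CPM with GC, against 35.4 to 54.1 CPM over all 10 tumors, where the groups overlapped. Its difference was -1.84 (95% interval -2.41 to -1.28, adjusted p = 0.0038).

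*Sorbs2*, *Adam12* and *Ppl* rose in culture and were not called in tumors. *Sorbs2*, an adaptor of the actin cytoskeleton, was at 16.3, 18.6 and 12.4 CPM with DMSO and 93.6 and 81.8 CPM with GC. Control tumors were at 30.5, 17.4, 30.2, 30.5 and 30.2 CPM and GC tumors at 16.3, 24.4, 23.9, 19.3 and 20.1 CPM. All GC tumors lay below 4 of the 5 controls, and control tumor 2 fell among them (exact permutation test, p = 0.0714). The response was 2.47 in culture (adjusted p = 7.35e-05) and -0.41 in tumors (adjusted p = 0.215), a difference of -2.89 (95% interval -3.59 to -2.19, adjusted p = 0.000625). *Adam12*, a membrane-bound metalloprotease, was at 11.7, 6.50 and 9.20 CPM with DMSO and 68.7 and 63.1 CPM with GC. In tumors it was at 14.7, 26.8, 27.8, 19.7 and 19.1 CPM in controls and 35.2, 27.8, 33.4, 28.7 and 29.9 CPM with GC, and the groups met at their edges (exact permutation test, p = 0.0159). Its difference was -2.33 (95% interval -3.06 to -1.60, adjusted p = 0.00416), with a tumor log2 fold change of 0.52 (adjusted p = 0.152) and a culture log2 fold change of 2.85 (adjusted p = 4.21e-05).

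*Ppl*, periplakin, links keratin filaments to the cell edge. It was at 2.31, 1.91 and 3.41 CPM with DMSO and 20.9 and 16.9 CPM with GC, and at 17.6, 10.8, 19.5, 19.6 and 18.3 CPM in control tumors and 30.4, 19.8, 25.1, 15.5 and 24.9 CPM in GC tumors. Tumor groups overlapped, and the difference was -2.45 (95% interval -3.31 to -1.59, adjusted p = 0.0107). Its call was lost without DMSO culture 1 (adjusted p = 0.0539), DMSO culture 2 (0.0515) or GC culture 1 (0.113). *Kdr*, a receptor for vascular endothelial growth factor and a marker of endothelium, was at 1.16, 1.30 and 1.28 CPM with DMSO and 4.19 and 3.68 CPM with GC. Its tumor levels were 31.2, 33.4, 15, 41.2 and 23.4 CPM in controls and 17.9, 8.46, 10.3, 17.7 and 16.6 CPM with GC, with control tumor 3 among the GC tumors. The fitted responses had opposite signs, 1.65 in culture (adjusted p = 0.108) and -1.02 in tumors (adjusted p = 0.0680), and neither was called, while their difference was -2.67 (95% interval -3.73 to -1.62, adjusted p = 0.0293). That call was lost without any of the 3 DMSO cultures (adjusted p = 0.119, 0.0931 and 0.0946), GC culture 1 (0.170), GC culture 2 (0.118), control tumor 2 (0.0567) or control tumor 4 (0.0546), with limma voom (0.105), and without GC tumors 2 and 4 and DMSO culture 2 together (0.102). On library totals, the summed level of 15 endothelial markers was 284 to 381 CPM in control tumors and 205.5 to 314 in GC tumors. GC tumors 2 and 4 were lowest on this scale, and the order of the GC tumors depends on the scaling. *Flt1* was the most abundant in every tumor and every culture, and *Tek* and *Cldn5* were at 0 in the cultures. The part of these markers in the *Kdr* result was not tested.

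The next group fell in culture and was not called in tumors. *Prkcb* (chr7:122288751-122634402), a protein kinase C isoform, was at 10.3, 9.78 and 10.2 CPM with DMSO and 1.14 and 1.04 CPM with GC. Control tumors were at 105, 129, 122, 145 and 107 CPM and GC tumors at 109.9, 125, 108, 108 and 118 CPM. In culture the groups were far apart, whereas in tumors they overlapped almost entirely (exact permutation test, p = 0.389). The log2 fold change was -3.22 in culture (standard error 0.25, adjusted p = 1.34e-06) and -0.10 in tumors (standard error 0.13, adjusted p = 0.688). The difference of 3.12 (95% interval 2.54 to 3.70, adjusted p = 2.45e-05) had the smallest p of all genes tested. *Lrrc15*, a leucine-rich repeat membrane protein known from activated fibroblasts, was at 3.67, 4.58 and 4.14 CPM with DMSO and 0.852 and 0.189 CPM with GC. In tumors it was at 167, 156, 186, 116 and 175 CPM in controls and 167, 299, 211, 356 and 222 CPM with GC, overlapping through GC tumor 1. Its difference was 3.75 (95% interval 2.61 to 4.89, adjusted p = 0.0038), and its call was lost without GC culture 2 (adjusted p = 0.0661). *Camk1g*, a calcium and calmodulin-dependent kinase, was at 3.95, 3.69 and 5.00 CPM with DMSO and 0.497 and 1.13 CPM with GC, against 20.1 to 34.0 CPM in control tumors and 27.8 to 62.8 CPM in GC tumors. Its difference was 2.96 (95% interval 1.93 to 3.99, adjusted p = 0.0107), lost without GC culture 1 (adjusted p = 0.162), with limma voom (0.068) and with all 31 libraries (0.0744).

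*Rbm47*, an RNA-binding protein of epithelial cells, was at 3.74, 4.51 and 5.00 CPM with DMSO and 1.35 and 1.75 CPM with GC. In tumors it was at 17.6, 20.0, 19.4, 17.7 and 18 CPM in controls and 25.9, 23.3, 26.2, 28.1 and 23.9 CPM with GC. The groups were apart in both settings, in opposite directions, with log2 fold changes of -1.50 in culture (adjusted p = 0.00773) and 0.46 in tumors (adjusted p = 0.124). The tumor value did not pass the threshold. Its difference was 1.96 (95% interval 1.31 to 2.60, adjusted p = 0.00642), lost without GC culture 1 (adjusted p = 0.116) and with all 31 libraries (0.0730). *Dcn*, a small matrix proteoglycan and a fibroblast marker, had 31, 19 and 20 counts with DMSO and 4 and 11 with GC, but 285 to 406 CPM in control tumors and 364 to 643 CPM in GC tumors. Its difference of 2.28 (95% interval 1.36 to 3.21, adjusted p = 0.0351) was called in 5 of the 15 fits with 1 library left out. It was lost without DMSO culture 1 (adjusted p = 0.135), DMSO culture 2 (0.0622), GC culture 1 (0.398), GC culture 2 (0.133), GC tumor 5 (0.0574) or any of the 5 control tumors (0.0669, 0.0524, 0.0565, 0.0511 and 0.0554), and also with limma voom (0.138) and with library totals (0.0678). On library totals, the summed level of 18 fibroblast and mural cell markers was 8134 to 9265 CPM in control tumors. In GC tumors it was 13300, 8746, 12970, 8499 and 13240 CPM, the low values again being GC tumors 2 and 4. Scaling with their TMM factors of 0.899 and 0.920 would raise these low values, so their place against the controls depends on the scaling. In cultures the sum was 2611 to 5522 CPM, mostly *Acta2*. The part of these markers in the results for *Dcn* and *Lrrc15* was not tested.

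Of the 22 genes, *Timp3* was the only one called in tumors and not in culture. It encodes a matrix-bound inhibitor of metalloproteases and was at 491, 577 and 518 CPM with DMSO and 229.9 and 263 CPM with GC. Tumors were at 606, 478, 499.6, 636 and 459.5 CPM in controls and 708, 1668, 1178, 943 and 1032 CPM with GC. From like levels without GC, every GC tumor lay above every control and both GC cultures lay below every DMSO culture. *Timp3* rose in tumors by 1.05 (adjusted p = 0.0188), the culture log2 fold change was -1.10 (adjusted p = 0.140), and the difference was 2.15 (95% interval 1.39 to 2.91, adjusted p = 0.0113). The call was lost without GC culture 1 (adjusted p = 0.170) or GC culture 2 (0.112). With all 31 libraries, *Timp3* was called upward in tumors (adjusted p = 0.00131) and downward in culture (adjusted p = 0.0443). *Sbsn*, suprabasin of the differentiating epidermis, was at 4.56, 7.59 and 4.14 CPM with DMSO and 2.13 and 2.50 CPM with GC, against 307, 263, 231, 293 and 302 CPM in control tumors and 417, 433, 370.2, 620.1 and 516 CPM in GC tumors. Its groups were apart in both settings, neither response was called (adjusted p = 0.0954 in culture and 0.0597 in tumors), and the difference was 1.97 (95% interval 1.21 to 2.73, adjusted p = 0.0245). That call was lost without DMSO culture 2 (adjusted p = 0.0830), GC culture 1 (0.295) or GC culture 2 (0.168), and with limma voom (0.0631). With all 31 libraries, *Sbsn* was called upward in tumors (adjusted p = 0.0376 from edgeR) and was not called in culture (0.0748). The summed keratinocyte markers overlapped between control tumors (3776 to 6626 CPM) and GC tumors (4295 to 5477 CPM), and their part in the *Sbsn* result was not tested.

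**Figure D2:**
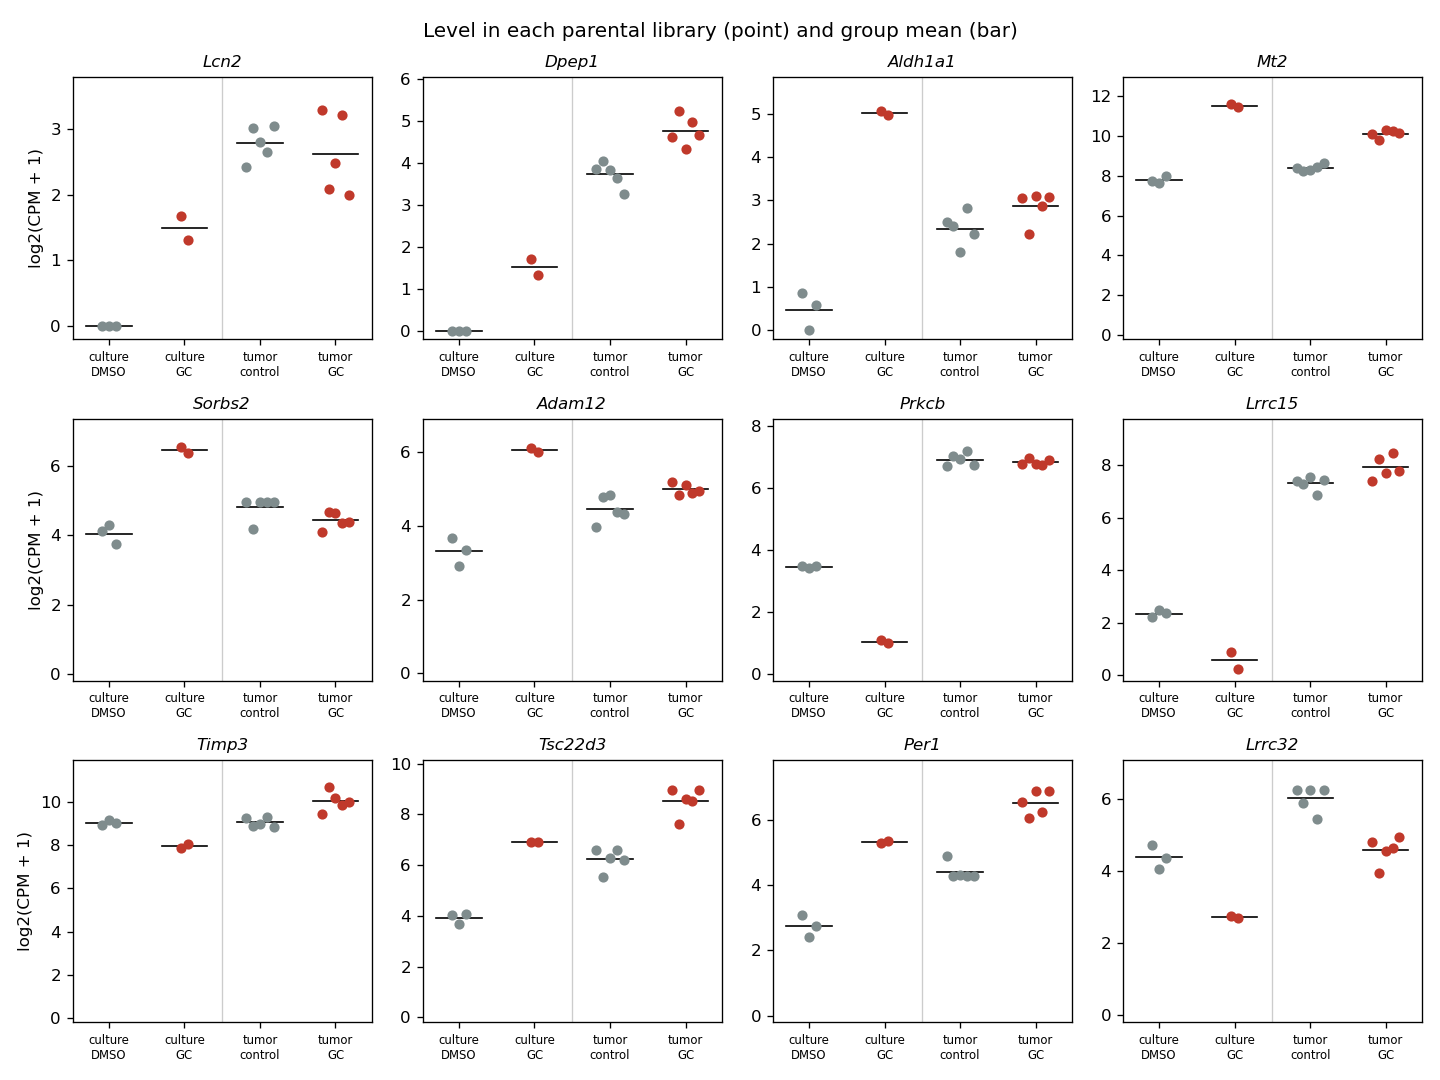
Level of 12 genes in each parental library as log2(CPM + 1) (points), by group, with the group mean (bar), gray without and red with GC. *Prkcb* and *Lrrc15* fell with GC in culture only, *Mt2* rose in both settings, *Timp3* was higher with GC in tumors and lower with GC in culture, and *Lrrc32* fell in both.

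Of the 22 genes, 21 were higher in control tumors than in DMSO cultures, all but *M1ap* (51.9% of all genes tested). For 19 of them every control tumor lay above every DMSO culture (25.6% of all genes tested), and for 14 the level was at least 4-fold higher in tumors (5.29% of all genes tested). The levels without GC are terms of the difference by which these genes were chosen. The 7 that passed the filter in culture through the GC cultures alone also had to be low with DMSO, so these shares are in part fixed by the choice and nothing is read from their excess over all genes. As tumors hold other cells, these levels do not show which cells the tumor transcripts came from.

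Genes called in 1 setting had smaller median responses in the other, near 0 in culture for those that fell in tumors. For the 59 genes that rose in culture the median log2 fold change was 2.74 there and 0.72 in tumors, and 47 of them had a positive sign in tumors. For the 24 that fell in culture the medians were -1.90 and -0.22, with 18 of the same sign. In the other direction, the 67 genes that rose in tumors had medians of 1.20 in tumors and 0.61 in culture, with 51 of the same sign. The 41 genes that fell in tumors had medians of -1.10 in tumors and 0.01 in culture, with 19 of the same sign. Each list was chosen for a large value in its own setting, so a smaller value in the other follows in part from the choice. Of all genes tested, 36.7% had the same sign in both, and the correlation of the fold changes across genes, which are not independent replicates, was -0.15.

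Several well-known GR targets were called in both settings and not for the difference. They were named by a rule that took the smallest differences among such genes, so small values follow from the choice. *Tsc22d3* (GILZ), which dampens inflammatory signaling, was at 15.2, 11.8 and 16.0 CPM with DMSO and 119.8 and 119 CPM with GC, and at 96.0, 45.1, 77.4, 94.7 and 72.3 CPM in control tumors and 492, 193, 391.7, 372 and 492 CPM in GC tumors. The groups were apart in both settings, GC tumor 2 was the lowest of the GC tumors, and the difference was -0.73 (95% interval -1.61 to 0.16). *Per1*, a repressor in the circadian clock, was at 7.42, 4.31 and 5.67 CPM with DMSO and 38.1 and 39.6 CPM with GC, and at 28.9, 18.3, 18.7, 18.3 and 18.2 CPM in control tumors and 92.0, 65.8, 117, 75.1 and 116 CPM in GC tumors. Its groups were apart as well, and the difference was -0.56 (95% interval -1.32 to 0.21). *Klf9*, a transcription factor, and *Sgk1*, a kinase that regulates ion transport, had differences of -0.37 (95% interval -1.21 to 0.46) and -0.16 (95% interval -0.89 to 0.58). For *Deptor*, an inhibitor of mTOR, and the secreted protease *Adamts1*, they were -0.43 (95% interval -1.18 to 0.32) and -0.75 (95% interval -1.44 to -0.06, adjusted p = 0.365). These intervals allow a difference of over 2-fold for *Tsc22d3*, *Per1*, *Klf9*, *Deptor* and *Adamts1*, so a like response is not shown by them.

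*Lrrc32*, which encodes GARP, the cell-surface protein that holds latent TGF-β, was the 1 gene that fell in both. It was at 25.3, 15.5 and 19.6 CPM with DMSO and 5.68 and 5.47 CPM with GC, and at 74.6, 58.2, 75, 42.9 and 75.3 CPM in control tumors and 26.9, 14.3, 22.3, 23.9 and 29.7 CPM in GC tumors. Groups were apart in both settings (exact permutation test in tumors, p = 0.00794). *Lrrc32* fell by 1.85 on the log2 scale in culture (adjusted p = 0.0110) and by 1.48 in tumors (adjusted p = 0.00324), and the difference was 0.38 (95% interval -0.44 to 1.19). In the list of 22 tested genes of GARP and TGF-β activation, *Itgb3*, an integrin subunit, also fell in culture, with log2 fold changes of -2.36 there (adjusted p = 0.00269) and -0.49 in tumors (adjusted p = 0.210). Its difference of 1.86 was not called (95% interval 0.98 to 2.74, adjusted p = 0.102). No gene of this list was called for the difference with edgeR, 5 had an unadjusted p under 0.05, beside 1466 of all 11183 genes, and the median difference was 0.13.

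The study's GC signature holds 24 genes raised by GC. It was chosen by the study on these samples, so its direction is not independent evidence. All 24 were tested, 5 of them through the GC cultures alone, 20 rose in tumors and 18 in culture (0.966% and 0.742% of all genes were called there), and none had responses of opposite sign (36.7% of all genes had the same sign). For 21 of the 24 the difference was below 0, with a median of -0.81, also with genes at their bound, and 3 were called, *Dpep1*, *Mt2* and *Ctla2a* (0.197% of all genes). *Zbtb16*, a transcriptional repressor, had 0, 0 and 0 counts with DMSO and 137 and 221 with GC, at least 155-fold, and its tumor values were 3.59, 1.54, 1.76, 3.05 and 0 CPM in controls and 16.0, 10.4, 7.02, 12.1 and 12 CPM with GC. *Sult1a1*, a sulfotransferase, had 0, 0 and 0 counts with DMSO and 79 and 81 with GC, at least 69.1-fold, and 2.97, 2.21, 1.65, 0.940 and 0.392 CPM in control tumors and 15.3, 4.15, 10.7, 10.1 and 10.9 CPM in GC tumors. For both genes every GC tumor lay above every control tumor. Neither passed for the difference, with adjusted p of 0.175 for *Zbtb16* and 0.122 for *Sult1a1* from edgeR, but both passed with DESeq2 (0.0172 and 0.00866) and without control tumor 5 (0.00336 and 0.0482). *Serpina3m*, a serine protease inhibitor with close paralogs, went from 0, 0 and 0 counts to 22 and 46 in culture, at least 29.4-fold, and had 0 to 0.513 CPM in control tumors and 1.95 to 2.80 CPM in GC tumors.

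The other signature genes had differences that were not called, from -1.70 for *Foxred2* (95% interval -3.38 to -0.02) to 0.47 for *Cebpd* (95% interval -0.47 to 1.40). *Rgs2*, which restrains G-protein signaling, had log2 fold changes of 3.14 in culture and 1.88 in tumors, and a difference of -1.27 (95% interval -2.31 to -0.22, adjusted p = 0.349). *Cebpd*, *Cyp26b1*, *Cp* and *Kcnj15* rose in tumors and were not called in culture, where their log2 fold changes were 1.20, 1.54, 1.08 and 2.02 (adjusted p = 0.234, 0.187, 0.399 and 0.187). *Fkbp5*, a GR co-chaperone outside this signature, rose in culture by 2.30 (adjusted p = 0.0439). In tumors it was at 206, 41.3, 218, 98.3 and 207 CPM with GC and 58.7 to 90.8 CPM in controls, GC tumor 2 lying below all controls (log2 fold change 1.01, adjusted p = 0.128). *Nr3c1*, which encodes GR itself, was not called in either setting, and its difference was -0.47 (95% interval -1.18 to 0.23).

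Across the fixed lists, 462 of 638 genes were tested and 13 were called for the difference, beside 0.197% of all genes tested. Without GC culture 1 it was 6, and without GC culture 2, DMSO culture 1 or DMSO culture 2 it was 8. The lists were set up with earlier results of these data known. Of 34 tested textbook GR targets, *Mt2* and *Lcn2* were called for the difference, 14 rose in tumors and 11 rose in culture, beside 0.966% and 0.742% of all genes called in either direction, and the median difference was -0.38. This list shares members with the study's signature, among them *Tsc22d3*, *Per1*, *Mt1* and *Mt2*, and 3 of the 34 passed the filter through the GC cultures alone. Its counts are therefore not independent of the signature or of these samples. *Ddit4*, *Gadd45g* and *Pik3r1* rose in tumors (log2 fold change 1.77, 1.48 and 1.14) and not in culture (0.71, 0.54 and 0.09), but their differences were not called (adjusted p = 0.359, 0.254 and 0.341). Of 41 matrix genes, *Dcn* and *Timp3* were called higher and *Adam12* lower, 5 rose in culture and 2 in tumors, and the median difference was 0.45. *Lox* and *Mmp19*, a collagen cross-linking enzyme and a metalloprotease, rose in culture by 1.46 and 1.62, with 0.25 and 0.32 in tumors (adjusted p of the difference 0.200 and 0.187). Of 22 cytoskeleton and kinase genes, *Prkcb* was called higher and *Sorbs2* and *Ppl* lower. There, *Sphk1*, *Akap12* and *Rgs2* were the other genes that rose in culture, *Rgs2* and *Myl9* rose in tumors, and the median difference was 0.11.

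Other lists had genes called in tumors or in culture but 0 called for the difference. In the proliferation list, *Plk1*, a mitotic kinase, fell in tumors by 1.04 on the log2 scale, 0 genes were called in culture or for the difference with edgeR, 13 of 36 had an unadjusted p under 0.05 for the difference, beside 1466 of all 11183 genes tested, and the median difference was -0.66. Of 39 interferon genes, *Bst2* fell in tumors and *Ly6c1* rose in culture, 8 had an unadjusted p under 0.05 for the difference, and the median difference was -0.41. Of 26 targets of TGF-β and BMP, *Klf10*, *Skil* and *Smad7* fell in tumors, *Ctgf* and *Fstl3* rose and *Tgfbi* fell in culture, 14 had an unadjusted p under 0.05 for the difference, and the median difference was -0.56. In the hypoxia and glycolysis list, *Adm*, *Ddit4* and *Pfkfb3* rose in tumors, with a median difference of -0.19 over 29 genes and 5 at an unadjusted p under 0.05. Of 26 insulin and mTOR genes, 5 rose and 1 fell in tumors, 3 rose and 1 fell in culture, 10 had an unadjusted p under 0.05 for the difference, and the median difference was 0.19. In the cytokine and NF-κB list of 20, *Vcam1* rose in tumors and *Il33* fell in culture (log2 fold change -3.06), with a median difference of -0.12 and 3 at an unadjusted p under 0.05.

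Further lists had 0 genes called for the difference. Median differences were 0.30 for 20 genes of GR machinery (3 with an unadjusted p under 0.05), 0.19 for 15 clock genes (4), 0.23 for 4 genes of the TSC22 family (1), -0.15 for 23 immediate early genes (4), -0.09 for 19 phosphatase and feedback genes of MAP kinase signaling (1), -0.13 for 35 genes of cell stress (6) and 0.53 for 13 melanocyte and neural crest genes (2). *Egr1*, an immediate early factor, fell in tumors by 1.07 on the log2 scale, with a culture log2 fold change of -0.94 (adjusted p = 0.426). *Tubb3*, a neuronal tubulin, fell in tumors by 1.06, and *Gclc*, an enzyme of glutathione synthesis, rose in culture by 1.49. With DESeq2, 26 of the list genes were called for the difference in place of 13.

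The same comparison was made in GR KO libraries, in which the melanoma cells but not the mice lack GR, by fitting all 31 libraries in 8 groups. In that fit, 21 genes differed between tumor and culture in GR KO material, 6 with a higher and 15 with a lower response in tumors. In parental material it was 34 genes, 13 higher and 21 lower. Between parental and GR KO material, the difference in response between tumor and culture itself differed for 16 of the 11183 genes tested, 11 of them named genes. Most named genes were chosen for the parental difference, which is a term of this comparison, so their passing it is not independent of the choice. For *Prkcb*, GR KO cultures were at 5.34 ± 1.26 CPM (SD, n = 3) with DMSO and 6.32 ± 1.55 CPM (SD, n = 3) with GC, and the parental difference exceeded that of GR KO by 3.64 (adjusted p = 1.17e-05). For *Mt2*, GR KO cultures were at 350 ± 24.0 CPM (SD, n = 3) with DMSO and 366 ± 45.2 CPM (SD, n = 3) with GC, and the parental difference lay below that of GR KO by a log2 value of -2.54 (adjusted p = 0.00016). In GR KO tumors *Mt2* rose from 345 ± 63.2 CPM without GC (SD, n = 5) to 524 ± 80.9 CPM with GC (SD, n = 5), a log2 fold change of 0.60 (adjusted p = 0.00606). The parental minus GR KO value was -2.96 for *Sorbs2* (adjusted p = 0.000798), -6.03 for *Aldh1a1* (adjusted p = 0.00759), -2.39 for *Adam12* (adjusted p = 0.0162) and -3.43 for *Ctla2a* (adjusted p = 0.000658). *Ctla2a* was near the limit in GR KO cultures, at 1.09 ± 0.514 CPM (SD, n = 3) with DMSO and 0.389 ± 0.162 CPM (SD, n = 3) with GC, and the GR KO difference, 1.70, made up much of its value. For *Timp3* it was 2.33 (adjusted p = 0.00905) and for *Sbsn* 3.44 (adjusted p = 0.000798), where -1.47 was the GR KO difference, with 0.855 ± 0.357 CPM (SD, n = 3) in DMSO and 1.66 ± 0.312 CPM (SD, n = 3) in GC-treated GR KO cultures. In GR KO cultures with GC, none of these 8 genes was called.

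*Tsc22d3* and *Adamts1* were named genes called in that comparison as well, although neither was called for the difference in parental material. In GR KO tumors *Tsc22d3* went from 70.6 ± 17.7 CPM without GC (SD, n = 5) to 232 ± 36.8 CPM with GC (SD, n = 5), a log2 fold change of 1.72 (adjusted p = 5.83e-05), and in GR KO cultures from 18.1 ± 1.91 CPM with DMSO (SD, n = 3) to 17.6 ± 2.97 CPM with GC (SD, n = 3). *Adamts1* had log2 fold changes of 1.64 in GR KO tumors (adjusted p = 6.65e-07) and 0.02 in GR KO cultures. For these genes the parental minus GR KO values were -2.48 (adjusted p = 0.0313) and -2.37 (adjusted p = 0.00178). Like *Mt2*, *Per1*, *Klf9* and *Fkbp5* also rose in GR KO tumors, by log2 fold changes of 1.23, 1.19 and 1.97 (adjusted p = 0.00201, 0.00428 and 0.000882). *Lrrc32* had a log2 fold change of -0.08 in GR KO tumors (adjusted p = 0.856). *Kdr* had a log2 fold change of -1.38 in GR KO tumors (adjusted p = 0.00165), against -1.02 in parental tumors. With all 31 libraries that fall in parental tumors was called as well (adjusted p = 0.040 from edgeR).

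The requirement for expression in culture removed genes that responded in tumors. Among 14005 genes that passed in tumors alone, 190 were changed by GC, 107 upward and 83 downward, and 64 of these, 30 upward and 34 downward, did not pass in cultures. Of the 64, 44 had 3 counts or fewer in every culture, so no response in culture could be measured for them. By the size of the change, the largest was *Folh1*, a carboxypeptidase, with 0 counts in the 5 control tumors and 42, 31, 10, 55 and 8 counts with GC, at least 49.7-fold. *S100a9*, a calcium-binding protein of neutrophils, was at 5.94, 22.3, 110, 9.05 and 597 CPM in control tumors and 2.93, 3.20, 5.30, 2.70 and 9.02 CPM with GC, with control tumor 5 far above the rest. The groups overlapped, and it fell by 5.03 on the log2 scale (adjusted p = 0.0458). *Hif3a*, a regulator of the hypoxia response, rose from 0.207, 0.257, 0, 1.06 and 1.18 CPM to 9.67, 9.03, 7.39, 18.3 and 13.5 CPM, a log2 fold change of 4.36 (adjusted p = 0.00395). It had 0, 0 and 0 counts in DMSO cultures and 3 and 7 in GC cultures. *E230001N04Rik*, *Timp4*, a metalloprotease inhibitor, and *Tmprss11g*, a membrane serine protease, had log2 fold changes of 4.21, 4.07 and -3.96.

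*Reg1*, *Chi3l3*, *Stfa1* and *Cxcl5*, named after their values were seen, belong to the same set. *Chi3l3*, a chitinase-like protein of macrophages, had 0 counts in all 5 cultures, and was at 3.45, 0.924, 0.550, 2.35 and 2.12 CPM in control tumors and 24.4, 11.9, 14.1, 30.2 and 14.3 CPM with GC, a log2 fold change of 3.34 (adjusted p = 0.00291). *Reg1*, a secreted lectin-like protein, rose by 3.65 (adjusted p = 0.0111), with 0 counts in all 5 cultures. *Stfa1*, a neutrophil protease inhibitor, fell by 3.68 on the log2 scale (adjusted p = 0.0190 from edgeR). It was at 125 and 256 CPM in control tumors 3 and 5, at 20.6 to 43.3 CPM in the other controls and at 2.91 to 15.8 CPM with GC. *Cxcl5*, a chemokine that attracts neutrophils, fell by 3.77 (adjusted p = 0.0278 from edgeR), with at most 2 counts in a culture. Its tumor groups overlapped, with GC tumor 1 (1.33 CPM) above control tumor 1 (1.17 CPM). Beside these values stands the summed level of leukocyte markers, 9883 to 13800 CPM in control tumors and 7720 to 13370 CPM in GC tumors. Its most abundant member, *C1qa*, had a median of 2760 CPM over the tumors, against 14.8 CPM for *S100a8* and 7.33 CPM for *S100a9*. The sum therefore does not show the level of neutrophil genes. The part of these markers in the results was not tested.

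Promoters were searched on both strands for the palindromic GR element, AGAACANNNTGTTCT, and for its single arm, AGAACA, from 250 bases before to 50 bases after the transcription start, in RefSeq sequences on GRCm38.p6. Of the 11183 genes tested, 8137 had a sequence. The full element was found in 1 of them (0.0123%), *Sgk1*, which rose in both settings. The arm was found in 13.7% of the 8137 promoters, in 4 of 17 (23.5%) of the genes called for the difference, and in 8 of 40 (20.0%) of those that rose in culture. It was found in 2 of 14 (14.3%) of those that fell in culture. For tumors it was 9 of 54 (16.7%) of those that rose and 5 of 22 (22.7%) of those that fell. No promoter of a gene called for the difference had the full element with up to 2 other letters. The sites of *Sgk1* and of *Sult1a1*, the 2 genes called higher in both settings with a match within 2 letters, are printed for this reason, 5′ to 3′ with the match in capitals. They lie at chr10:21993694-21993722 on the plus strand and at chr7:126676431-126676459 on the minus strand, 189 and 34 bases before the start.
Sgk1: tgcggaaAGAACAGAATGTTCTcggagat
Sult1a1: tttctggAGAACAGCCAGTCCTagcactg
A match describes these letters in this window and says nothing of binding, and sites elsewhere in the genome were not searched.

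The methods give no strand setting for featureCounts and say that defaults were used where nothing is specified, which for this tool ignores the strand. Reads of a gene overlapped by one on the other strand may then have been dropped or counted for the wrong gene. Of the called genes, *Sorbs2*, *Aldh1a1*, *Prkcb*, *Acp5*, *Camk1g*, *Ccbe1*, *Rbm47*, *M1ap*, *Mt2* and *Timp3* have such an overlap. This was read from a GENCODE annotation over whole genes with introns, not from the Ensembl annotation used for counting. A gene named here need therefore not have been affected, and overlaps on the same strand are not listed. The effect was not tested.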

How the data were processed

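The deposited counts per gene are integers that the authors made with Trim Galore 0.6.5, STAR 2.6.1d and featureCounts on GRCm38, without filtering or normalization. All 39179 genes were read and every library was matched to a group by its labels. The 15 parental libraries were scaled together with TMM factors and fitted over 4 group means in edgeR 4.0.16 (R 4.3.3) by quasi-likelihood, with Benjamini-Hochberg adjustment over 11183 genes. The study's methods name DESeq2, which was run as an alternative (DESeq2 1.42.0, limma 3.58.1 for voom). Other alternatives changed the normalization, the filter, the minimum fold of 1.5, the libraries fitted and the pairing. Ratios against 0 counts take 3 counts over the group. Exact permutation tests are two-sided, on log2(CPM + 1) of 5 against 5 tumors, and 2 against 3 cultures cannot give a p under 0.1. They use the values by which genes were named, so they describe and do not add support. The pipeline was tested on simulated data, with a log2 change of 2 in culture given to 200 of the 11183 genes. It recovered 65% of them in culture and 49% for the difference, with 3 false calls in each. A difference that was not called may therefore still be present. The members and lists were chosen with earlier results of these data known. Genes were named by rule: up to 12 called genes in each direction with the largest difference and separate groups, called members of the lists, the study's signature with *Fkbp5* and *Nr3c1*, up to 8 genes called in both settings with the smallest difference, and the 6 largest tumor changes removed by the culture filter.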

Additional observations from a re-analysis of the deposited data

Results flagged for a closer look

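Of the tumor groups of the named genes, 92 were checked for a sample far from the other 4 (a gap over 0.71 of the range), and 8 had one, where chance gives about 1 in 20. On the scale of log2(CPM + 1), GC tumor 2 was low for *Aldh1a1* (2.23, the others 2.88 to 3.11) and *Foxred2* (1.36, the others 2.29 to 2.64) and high for *Rnf125* (5.75, the others 4.02 to 4.51). Control tumor 2 was low for *Ctla2a* (5.64, the others 5.97 to 6.07), *Ppl* (3.56, the others 4.21 to 4.36) and *Sorbs2* (4.20, the others 4.96 to 4.98). Control tumor 1 was high for *Per1* (4.90, the others 4.27 to 4.30), and GC tumor 4 was high for *Scara5* (4.99, the others 4.05 to 4.29).

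The response to GC differed between tumor and culture by the test of the difference for 22 genes. Lower in tumors were, on the log2 scale and as bounds for genes at 0 counts, *Lcn2* (-4.85), *Acp5* (-4.82) and *Dpep1* (-3.69), and as ratios of few counts *Fabp4* (-7.23) and *Ccbe1* (-4.86). The others lower in tumors were *Aldh1a1* (-5.52), *Ehd3* (-3.81), *Sorbs2* (-2.89), *Kdr* (-2.67), *Ppl* (-2.45), *Adam12* (-2.33), *Mt2* (-2.0), *M1ap* (-1.91), *Rab3il1* (-1.84) and *Ctla2a* (-1.74). Higher in tumors were *Rbm47* (1.96), *Sbsn* (1.97), *Timp3* (2.15), *Dcn* (2.28), *Camk1g* (2.96), *Prkcb* (3.12) and *Lrrc15* (3.75).

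That difference itself differed between parental and GR KO libraries for 11 named genes, with parental minus GR KO values of -2.39 for *Adam12*, -2.37 for *Adamts1*, -6.03 for *Aldh1a1*, -5.92 for *Ccbe1*, -3.43 for *Ctla2a*, -2.54 for *Mt2*, 3.64 for *Prkcb*, 3.44 for *Sbsn*, -2.96 for *Sorbs2*, 2.33 for *Timp3* and -2.48 for *Tsc22d3*.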

How the results depend on the processing

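No called difference of a named gene reversed its direction under any alternative. Over the named genes, 1218 values kept their side of the threshold, 94 lost it and 4 gained it, and of the medians of lists 757 moved by less than their spread and 26 by more. The number of genes differing in response, 22, was 110 with DESeq2, 40 with limma voom, 11 with a CPM of at least 1 in all libraries and 34 with all 31 libraries, and ranged from 12 to 26 with each library left out. The number changed in tumors, 108, was 602 with DESeq2, 270 with no filter, 184 with a CPM of at least 0.5 in 3 libraries, 223 with all 31 libraries, 32 with tumors fitted alone, and 30 to 583 with each library left out. The number changed in cultures, 83, was 166 with DESeq2, 177 with limma voom, 41 with a CPM of at least 1 in all libraries, and 29 to 98 with each library left out. Of the list genes, 13 were called, 26 with DESeq2, 8 with a CPM of at least 1 in all libraries, and 6 to 15 with each library left out. In fits chosen after seeing the data, without GC tumors 2 and 4 the tumor count was 50 and the culture count 140, without DMSO culture 2 the list count was 8, and without all 3 the tumor count was 69. With the replicate number as a block, the counts were 2 for the difference, 251 for tumors, 31 for cultures and 1 for list genes. The deviations of same-numbered samples correlated at -0.36, 0.27, 0.25, -0.18 and 0.27 in tumors and at 0.22 and 0.37 in cultures. In their labels these tumors share only a number, and correlations of mixed sign do not settle whether they pair. The 2 pairs of cultures, which also share a letter and a date in their names, are too few to tell. With the block, 1 of the 22 genes, *Prkcb*, kept its call (adjusted p = 0.00714 from edgeR), and for the other 21 the adjusted p ran from 0.0591 for *Mt2* to 0.142 for *Ccbe1*. Fewer genes are tested under the strict filter, and with the block fewer samples are free to measure the spread and DMSO culture 3 has no GC partner. For the other alternatives the cause was not tested. With 2 GC cultures and 0.114 to 0.208 CPM as the limit of 3 counts, changes in genes near that level were not detectable at this depth.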
